A study of Mus musculus with 16 samples.

Results

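The collagen genes of the mouse are described here across 16 left ventricles. They were taken as every gene of the count table whose symbol has the form Col, a type number, a and a chain number, which gave 44 of 56953 genes. By the fibre or network that each chain builds, 11 were grouped as fibrillar, 6 as basement membrane (type IV), 9 as FACIT, the fibril-associated collagens with interrupted triple helices, and 18 as other. Low counts kept 4 of the 44 out of the tests: Col9a1 with 5 counts over all libraries, Col19a1 with 31, Col10a1 with 43 and Col24a1 with 67.

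Collagens are chains that fold by threes into a triple helix, after prolines and lysines in them have been hydroxylated in the endoplasmic reticulum. In the heart the type I and type III fibrils carry tension between muscle bundles, while type IV networks form the sheet around each myocyte and capillary. Cardiac fibroblasts make most of the fibrillar collagen, and excess fibrillar collagen is the scar tissue of fibrosis. The study's title states a rescue of RBM20 cardiomyopathy by TNPO3. RBM20 is a splicing regulator of heart muscle, and TNPO3 (transportin 3) is a nuclear import receptor for splicing proteins.

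The 4 groups held 4 libraries each, from mice of strain Bl6J. The mice as a whole were of both sexes, which does not mean that each group held both. Each library is taken as 1 mouse, though the labels give only replicate numbers, so p-values measure the spread between these samples. WT Ctr were wild-type mice given the control virus, and WT Tnpo3 were wild-type mice given the Tnpo3 virus. P635L Ctr and P635L Tnpo3 were mice homozygous for the RBM20 mutation P635L that received the same 2 viruses. Each mouse got 1e12 vector genomes of AAV9 by tail vein at 4 weeks of age, and its heart was taken 12 weeks later, at 16 weeks. The Tnpo3 virus carried a Tnpo3 cDNA. The control virus carried pCAG-iCre-T2A-eGFP, so the Ctr groups received genes for a Cre recombinase and a green fluorescent protein that the Tnpo3 groups did not, and no group was left without virus. AAV9 reaches other organs as well as the heart, and the promoter of the Tnpo3 vector is not given in the sources used here.

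Libraries held 28493249 to 85922669 counts, and collagen genes took 0.155% to 0.406% of them. Tnpo3 checked the virus labels: it was at 41.6 to 49.4 CPM (counts per 1000000, with TMM library sizes) in the 8 Ctr libraries and at 231 to 723 CPM in the 8 Tnpo3 libraries. P635L is a point mutation, so the Rbm20 level checks no label. One gene, ENSMUSG00000119584, took 19.96%, 21.2% and 22.7% of the counts in WT Ctr replicate 2, WT Ctr replicate 4 and WT Tnpo3 replicate 4, against 0.703% to 5.30% in the other 13 libraries. Xist, the X-inactivation RNA, was at 211 to 587 CPM in WT Ctr replicate 4 and WT Tnpo3 replicates 2 and 4. It was at 0.207 to 2.39 CPM in the other 13, so no mutant library was high in it. Comparisons of mutant with wild type are therefore not balanced for sex as read from Xist. This holds also for Col4a5 and Col4a6 on the X chromosome, and the part of sex in the results was not tested. An annotated gene on the other strand overlaps 18 of the collagens, 7 of them among the 17 called in any comparison (Col4a3, Col4a5, Col5a1, Col12a1, Col13a1, Col15a1 and Col22a1), and whether counting used strand is not given in the sources used here. Cardiomyocyte markers were the most abundant of the marker lists in every library, at 50540 to 82810 summed CPM.

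In WT Ctr the type IV chains Col4a1 and Col4a2 stood highest among the collagens, at 58.5 ± 10.7 and 50.1 ± 12.3 CPM per kilobase of exon (mean ± SD, n = 4), which made 20.8% and 17.8% of all collagen signal on that scale. Col3a1 of the type III fibril followed at 29.5 CPM per kilobase, then Col6a1 of the microfibrils around cells at 25.7, Col1a1 of the type I fibril at 23.7 and Col15a1 of the capillary basement membrane zone at 20.6. The SDs of these 4 overlapped between mice. Within each WT Ctr library Col3a1 stood above Col1a1, and the order of the other pairs was not tested. FACIT chains were scarce: Col14a1 and Col16a1 led the class at 1.92 and 1.88 CPM per kilobase, and Col12a1 was at 0.0482. Fibrillar, type IV, FACIT and other chains made 29.8%, 40.9%, 1.89% and 27.4% of the summed collagen level in WT Ctr.

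In mutant hearts under the control virus, 15 collagens were higher than in WT Ctr and 1, Col13a1, was lower, of 40 tested (edgeR quasi-likelihood test, Benjamini-Hochberg adjusted p under 0.05). The same test called 14.2% of all 18662 genes, 7.07% as higher and 7.14% as lower. The 15 spanned every class: 4 of 10 fibrillar chains tested, 3 of 6 of type IV, 4 of 7 FACIT chains and 4 of 17 others. The median log2 fold change was 0.50 over the 40 collagens, against -0.05 over all genes tested. Summed over the 44 genes, collagen stood at 394 ± 68.0 CPM per kilobase in P635L Ctr against 282 ± 45.8 in WT Ctr (mean ± SD, n = 4), with ranges of 301 to 463 and 241 to 334 that overlapped. In bulk tissue, more collagen RNA per cell and more collagen-producing cells cannot be told apart.

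With the Tnpo3 virus in mutant hearts, 10 collagens were lower than under the control virus and none was higher, where the test called 3.88% of all genes, 2.25% as lower and 1.63% as higher. These were 2 fibrillar, 2 type IV, 3 FACIT and 3 other chains, and the median over the 40 was -0.39, against 0.01 over all genes. The summed level was 278 ± 49.3 CPM per kilobase, with libraries from 218 to 334 that overlapped those of P635L Ctr. In wild-type hearts the same virus called none of the 40, and 0.00536% of all genes, which is 1 gene. None of the 40 had an unadjusted p under 0.05 there, DESeq2 called none, and in edgeR the log2 fold changes ran from -2.66 to 0.39. The WT Tnpo3 sum was 286 ± 5.83 CPM per kilobase. P635L Ctr is a side of both the mutation comparison and the virus comparison in mutants, so a library of that group that reads high raises the one and lowers the other.

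**Figure D1:**
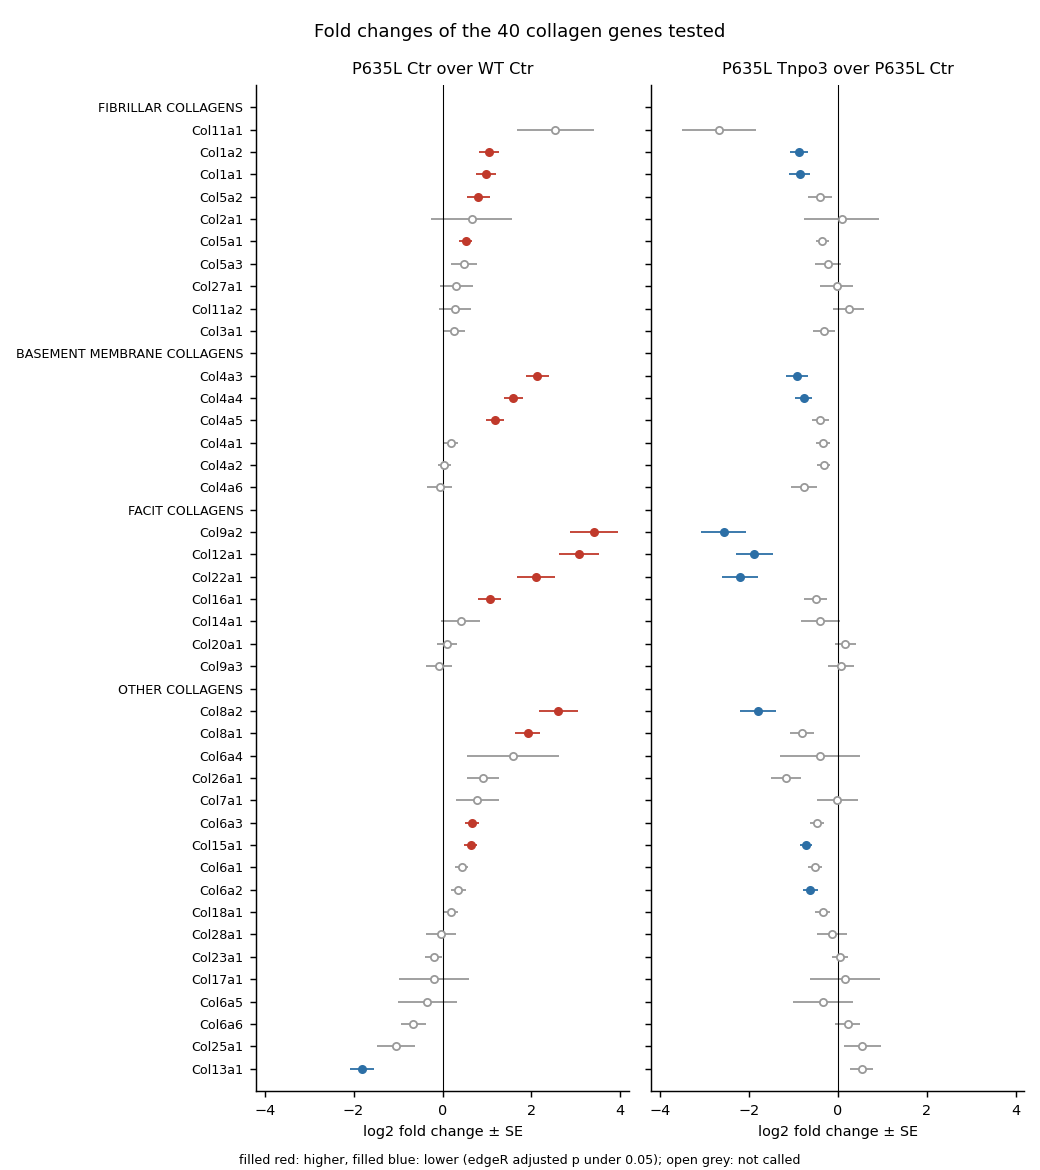
Log2 fold change ± SE of each of the 40 collagens tested, by class, in P635L Ctr over WT Ctr (left) and P635L Tnpo3 over P635L Ctr (right). Filled red points are called higher, filled blue points lower and open grey points not called: 15 are red and 1, Col13a1, is blue on the left, and 10 are blue and none is red on the right.

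The difference between the viruses was not shown to depend on genotype for any single collagen. The interaction of virus and genotype called 0 of 40 with edgeR and 0.504% of all genes, 0.295% as higher and 0.209% as lower. At an unadjusted p under 0.05 there were 13 collagens, 12 of them with a more negative virus effect in mutants, and DESeq2 called 3: Col12a1, Col15a1 and Col9a2. In edgeR the interaction was -2.05 ± 0.63 (log2 ± SE) for Col12a1 with adjusted p = 0.181, -0.71 ± 0.20 for Col15a1 with adjusted p = 0.126, and -2.46 ± 0.75 for Col9a2 with adjusted p = 0.18.

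Among the fibrillar collagens, Col1a1 and Col1a2, the 2 chains of the type I fibril, were both higher in P635L Ctr. Values are CPM in replicates 1 to 4 of each group, in that order, and fold changes are on the log2 scale ± SE. Col1a1 was at 236, 157, 108 and 120.5 CPM in WT Ctr, 150.1, 144, 140.3 and 170.5 in WT Tnpo3, 359, 356, 194 and 317 in P635L Ctr, and 133, 189, 139 and 217 in P635L Tnpo3. Its log2 fold change in P635L Ctr over WT Ctr was 0.98 ± 0.23, edgeR adjusted p = 0.00879, a 1.97-fold difference. Replicate 3 of P635L Ctr was the lowest of its group, below the highest WT Ctr library, so the groups overlapped by that pair. Col1a2 was at 219.6, 139.9, 116 and 125 CPM in WT Ctr, 134, 123, 156 and 156 in WT Tnpo3, 358, 342, 203 and 336 in P635L Ctr, and 139, 190.0, 133 and 216 in P635L Tnpo3. It was 2.06-fold higher in P635L Ctr (1.05 ± 0.22, edgeR adjusted p = 0.00296), and replicate 3 again lay below WT Ctr replicate 1. Under the Tnpo3 virus the mutant hearts had 1.81-fold less Col1a1 (-0.86 ± 0.23, edgeR adjusted p = 0.0496) and 1.83-fold less Col1a2 (-0.87 ± 0.21, edgeR adjusted p = 0.0293). Here too the libraries overlapped, because P635L Ctr replicate 3 lay within the range of P635L Tnpo3 for both genes.

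The minor fibrillar chains Col5a1 and Col5a2 of type V, which sit in the core of type I fibrils and limit their width, were higher in P635L Ctr by less. Col5a1 was at 67.8, 68.4, 56.5 and 59.7 CPM in WT Ctr, 47.9, 58.1, 60.9 and 74.2 in WT Tnpo3, 107, 95.8, 71.0 and 88.2 in P635L Ctr, and 69.8, 76.5, 58.6 and 79.8 in P635L Tnpo3. Every P635L Ctr library was above every WT Ctr library, with a log2 fold change of 0.52 ± 0.15, edgeR adjusted p = 0.0213. Col5a2 was at 49.6, 36.5, 33.6 and 25.97 CPM in WT Ctr, 30.4, 37.5, 38.99 and 33.9 in WT Tnpo3, 81.5, 72.4, 43.3 and 56.5 in P635L Ctr, and 37.6, 51.2, 29.2 and 74.2 in P635L Tnpo3. Its log2 fold change was 0.80 ± 0.26, edgeR adjusted p = 0.0481, with P635L Ctr replicate 3 below WT Ctr replicate 1. The Col5a1 call was lost without WT Ctr replicate 3 (0.48, edgeR adjusted p = 0.0598), P635L Ctr replicate 1 (0.45, 0.0768) or P635L Ctr replicate 2 (0.52, 0.058), and that of Col5a2 was lost under 17 of 25 alternatives, among them the removal of any 1 of 12 libraries (all but WT Ctr replicate 1, P635L Ctr replicate 3 and P635L Tnpo3 replicates 3 and 4), with adjusted p up to 0.134. Neither passed the test between the viruses in mutants, at -0.35 ± 0.15, edgeR adjusted p = 0.205 and -0.40 ± 0.26, edgeR adjusted p = 0.44.

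Col3a1, the single chain of the type III fibril and the most abundant fibrillar collagen in WT Ctr per kilobase, did not pass the test in any comparison. It was at 461, 264, 220.5 and 213 CPM in WT Ctr, 280.4, 279.5, 312 and 325 in WT Tnpo3, 465, 351, 210.4 and 352 in P635L Ctr, and 229.7, 326, 209.9 and 343 in P635L Tnpo3. The mutant and wild-type ranges overlapped, with WT Ctr replicate 1 close to the highest mutant library. The log2 fold change was 0.25 ± 0.25, edgeR adjusted p = 0.546 for P635L Ctr over WT Ctr and -0.31 ± 0.25, edgeR adjusted p = 0.556 for the viruses in mutants. A miss of the threshold does not show that the level was the same.

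The balance of type I to type III chains was therefore computed within each library, where scaling between libraries has no part. The log2 ratio of Col1a1 to Col3a1 per kilobase was -0.38, -0.17, -0.44 and -0.24 in WT Ctr and -0.32, -0.37, -0.57 and -0.35 in WT Tnpo3. In P635L Ctr it was 0.21, 0.60, 0.47 and 0.43, and in P635L Tnpo3 it was -0.21, -0.20, -0.01 and -0.08. Col1a1 thus exceeded Col3a1 in all 4 P635L Ctr libraries and in none of the other 12. The difference from WT Ctr was 0.74 and that of P635L Tnpo3 from P635L Ctr was -0.55, each with a two-sided exact permutation p of 0.0286, the smallest that 4 against 4 allows. Adjusted over the 12 ratio tests both were at p = 0.171 (exact permutation, Benjamini-Hochberg), so neither passed the correction.

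Ratios of chains that build 1 trimer or network were tested the same way, and none passed the correction, which does not show that they stayed the same. The log2 ratio of Col1a1 to Col1a2 was 0.90 ± 0.07 in P635L Ctr and 0.95 ± 0.13 in WT Ctr (mean ± SD, n = 4, exact permutation p = 0.486). That of Col4a1 to Col4a2 was 0.38 ± 0.08 and 0.23 ± 0.18 (exact permutation p = 0.229). For Col8a1 to Col8a2 it was 2.92 ± 0.43 and 3.49 ± 0.32 (exact permutation p = 0.114), and in P635L Tnpo3 it was 3.99 ± 0.72, 1.07 above P635L Ctr (exact permutation p = 0.0571, adjusted 0.229). Without P635L Tnpo3 replicate 2 that difference was 1.37 (exact permutation p = 0.0286), and without P635L Ctr replicate 3 that of P635L Ctr from WT Ctr was -0.76 (exact permutation p = 0.0286). Between the viruses in mutants the ratio of Col1a1 to Col1a2 differed by 0.02 and that of Col4a1 to Col4a2 by -0.01 (exact permutation p = 0.6 and 0.857). A ratio per kilobase depends on the exon length assumed, and the union of exons for Col1a2, at 12426 bases, was longer than the 6563 of Col1a1, so the level of a ratio is less firm than its change between groups.

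**Figure D2:**
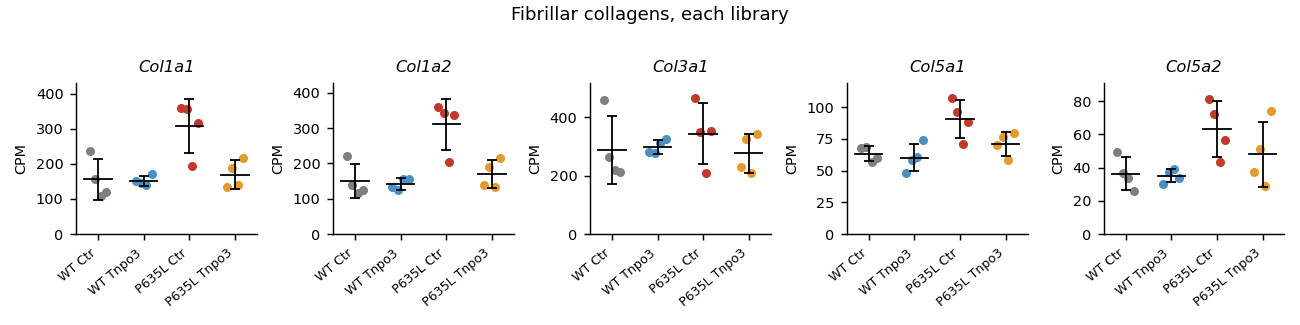
CPM of 5 fibrillar chains in each library (points), with group mean and SD (bars), on linear axes from 0. Replicate 3 of P635L Ctr is the lowest point of its group in all 5 panels, at 194.5 CPM for Col1a1.

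The remaining fibrillar chains were scarce or variable. Col11a1, a cartilage chain that joins type V fibrils, was at 0 to 0.217 CPM in WT Ctr and 0.358 to 1.04 CPM in P635L Ctr, with no overlap, and missed the threshold (2.54 ± 0.87, edgeR adjusted p = 0.0594). In P635L Tnpo3 it was at 0 to 0.212 CPM (-2.67 ± 0.84, edgeR adjusted p = 0.0836 against P635L Ctr). Col5a3, Col11a2, Col27a1 and Col2a1 overlapped between the groups and had log2 fold changes of 0.48, 0.28, 0.31 and 0.66 in the mutation comparison, none called.

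Within type IV collagen, 3 of 6 chains were called in P635L Ctr. Col4a1 and Col4a2 build the network of most basement membranes, while Col4a3, Col4a4 and Col4a5 form a second trimer best known from the filter of the kidney. Col4a3 was at 3.22, 4.25, 6.44 and 3.33 CPM in WT Ctr, 3.25, 2.83, 4.75 and 4.62 in WT Tnpo3, 23.4, 19.2, 17.9 and 15.01 in P635L Ctr, and 8.98, 9.61, 6.58 and 14.6 in P635L Tnpo3. All 4 P635L Ctr libraries lay above all 8 wild-type libraries, and the log2 fold change over WT Ctr was 2.13 ± 0.26, edgeR adjusted p = 2.47e-05, a 4.37-fold difference. Col4a4 was at 11.6, 13.9, 17.8 and 15.9 CPM in WT Ctr, 9.68, 8.53, 16.7 and 13.6 in WT Tnpo3, 52.2, 44.6, 41.1 and 40.1 in P635L Ctr, and 23.3, 24.1, 20.6 and 36.2 in P635L Tnpo3. It too was clear of every wild-type library, 3.00-fold higher (1.59 ± 0.21, edgeR adjusted p = 4.98e-05). Col4a5 was at 23.9, 19.1, 36.7 and 25.8 CPM in WT Ctr, 22.4, 22.4, 36.5 and 21.2 in WT Tnpo3, 73.8, 62.1, 60.6 and 43.2 in P635L Ctr, and 42.5, 44.5, 43.6 and 52.3 in P635L Tnpo3. It was 2.27-fold higher in P635L Ctr (1.18 ± 0.21, edgeR adjusted p = 0.000731), again with no overlap.

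Col4a1 and Col4a2 did not pass the test. Col4a1 was at 461, 536, 400.0 and 351 CPM in WT Ctr, 538, 448, 467 and 423 in WT Tnpo3, 549, 499, 424 and 526 in P635L Ctr, and 423, 395, 305 and 469 in P635L Tnpo3. Col4a2 was at 302, 454, 282 and 289 CPM in WT Ctr, 361, 318, 317 and 327 in WT Tnpo3, 380.1, 328, 311 and 344 in P635L Ctr, and 290.2, 270.1, 218 and 312 in P635L Tnpo3. Their mutant and wild-type ranges overlapped, with log2 fold changes of 0.19 ± 0.15, edgeR adjusted p = 0.422 and 0.04 ± 0.15, edgeR adjusted p = 0.898. Col4a6, which pairs with Col4a5 in some basement membranes, was at 1.53 to 4.09 CPM in WT Ctr and 2.05 to 3.30 CPM in P635L Ctr (-0.06 ± 0.28, edgeR adjusted p = 0.918). In P635L Tnpo3 it was at 1.25 to 1.73 CPM, below every P635L Ctr library, without passing the test (-0.76 ± 0.29, edgeR adjusted p = 0.154). The type IV share of summed collagen was 34.4% ± 3.50 in P635L Ctr, 37.9% ± 2.79 in P635L Tnpo3 and 40.9% ± 5.70 in WT Ctr (mean ± SD, n = 4), with overlapping ranges between P635L Ctr and WT Ctr of 31.7% to 39.4% and 33.8% to 47.2%.

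Under the Tnpo3 virus, Col4a3 and Col4a4 were lower in mutant hearts, by 1.90-fold (-0.92 ± 0.25, edgeR adjusted p = 0.0454) and 1.71-fold (-0.77 ± 0.20, edgeR adjusted p = 0.0409), with no overlap of libraries. Both calls sat near the threshold: without any 1 of P635L Ctr replicates 1 to 4 or P635L Tnpo3 replicates 1 to 3 both were lost, with log2 fold changes of -1.02 to -0.67 and edgeR adjusted p of 0.0605 to 0.151, and Col4a3 was also lost without WT Ctr replicate 2 (0.0532). Col4a5 was not called there (-0.39 ± 0.20, edgeR adjusted p = 0.315), nor were Col4a1 (-0.33 ± 0.15, edgeR adjusted p = 0.243) and Col4a2 (-0.32 ± 0.15, edgeR adjusted p = 0.25).

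In the genome the 6 type IV genes lie as 3 pairs, each head to head. In build GRCm39, as the count table gives it, Col4a4 spans chr1:82426144-82564570 on the minus strand and Col4a3 spans chr1:82564642-82699780 on the plus strand, with 71 bases between their starts. Col4a6 at chrX:139948399-140257072 and Col4a5 at chrX:140258381-140472230 have 1308 bases between them, and Col4a1 and Col4a2 overlap at their starts on chromosome 8. Col4a3 and Col4a4 moved together in both mutant comparisons, whereas Col4a5 was called in the mutation comparison and its partner Col4a6 was not. For this reason the stretch shared by the first pair and the stretches before the starts of the second pair are shown, 5′ to 3′ on the strand of the named gene, from RefSeq on GRCm38.p6. Capitals mark the GC box GGGCGG on either strand. The stretch of Col4a4, chr1:82586850-82586920 on the minus strand, is the whole gap to the RefSeq start of Col4a3. That of Col4a5, chrX:141475285-141475384 on the plus strand, ends 35 bases before the start, and that of Col4a6, chrX:141474077-141474176 on the minus strand, ends at it.
Col4a4: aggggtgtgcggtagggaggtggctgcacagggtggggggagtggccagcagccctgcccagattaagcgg
Col4a5: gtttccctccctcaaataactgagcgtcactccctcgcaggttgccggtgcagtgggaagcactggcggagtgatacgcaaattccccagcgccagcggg
Col4a6: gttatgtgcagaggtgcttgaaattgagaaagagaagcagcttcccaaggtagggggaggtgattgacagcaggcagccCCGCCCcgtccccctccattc
The gap between Col4a4 and Col4a3 holds 69.0% G and C and none of the 4 motifs searched, and the Col4a6 stretch has 1 GC box. A match is a description of the letters, not a site.

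**Figure D3:**
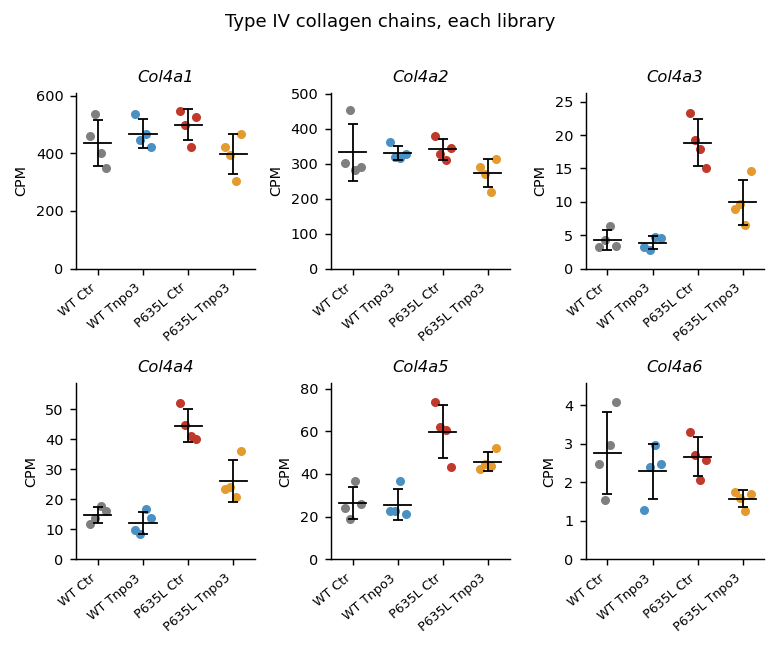
CPM of the 6 type IV chains in each library (points), with group mean and SD (bars), on linear axes from 0. Col4a3, Col4a4 and Col4a5 separate P635L Ctr from both wild-type groups, while Col4a1, Col4a2 and Col4a6 do not.

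FACIT chains, which decorate the surface of fibrils rather than forming them, held the 2 largest folds among the collagens called, those of Col9a2 and Col12a1. Col9a2, a chain of the type IX collagen of cartilage, was at 0.796, 0.536, 0.384 and 0.377 CPM in WT Ctr, 0.303, 0.656, 0.140 and 0.826 in WT Tnpo3, 7.63, 7.59, 2.99 and 3.92 in P635L Ctr, and 0.879, 0.708, 0.311 and 1.81 in P635L Tnpo3. Every P635L Ctr library was well above the highest wild-type library, and the log2 fold change over WT Ctr was 3.41 ± 0.54, edgeR adjusted p = 0.000357, a 10.7-fold difference. Col12a1, which binds type I fibrils in tendon and in injured tissue, was at 1.01, 0.495, 0.850 and 0.580 CPM in WT Ctr, 0.546, 0.731, 0.894 and 1.16 in WT Tnpo3, 5.37, 7.96, 2.37 and 9.01 in P635L Ctr, and 0.879, 1.75, 0.915 and 3.14 in P635L Tnpo3. It was 8.37-fold higher in P635L Ctr (3.07 ± 0.46, edgeR adjusted p = 0.0002), and the lowest P635L Ctr library, replicate 3, stood above all wild-type libraries. Col22a1, a collagen of the junction between muscle and tendon, was at 0.615, 1.28, 1.70 and 0.551 CPM in WT Ctr, 0.880, 0.328, 0.727 and 0.694 in WT Tnpo3, 3.46, 6.90, 3.06 and 4.35 in P635L Ctr, and 0.586, 0.766, 0.759 and 1.73 in P635L Tnpo3. It was 4.28-fold higher (2.10 ± 0.42, edgeR adjusted p = 0.00221), also without overlap. These 3 were scarce in wild type: Col9a2 had 5 to 26 counts per wild-type library, Col12a1 12 to 35 and Col22a1 13 to 62, so the precision of their folds is limited by few reads.

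The same 3 were lower under the Tnpo3 virus in mutant hearts. Col9a2 was 5.95-fold lower (-2.57 ± 0.50, edgeR adjusted p = 0.00829) and Col22a1 4.61-fold lower (-2.20 ± 0.41, edgeR adjusted p = 0.00587), both with every P635L Tnpo3 library below every P635L Ctr library. Col12a1 was 3.69-fold lower (-1.88 ± 0.42, edgeR adjusted p = 0.0187), where P635L Tnpo3 replicate 4 lay above P635L Ctr replicate 3. The calls of Col9a2 and Col22a1 held under all 25 alternatives of that comparison. The call of Col12a1 was lost without P635L Ctr replicate 2 (-1.72, edgeR adjusted p = 0.0737), P635L Ctr replicate 4 (-1.65, 0.0755), P635L Tnpo3 replicate 1 (-1.68, 0.0654), replicate 2 (-1.89, 0.062) or replicate 3 (-1.68, 0.0724).

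Col16a1 and Col14a1 were the most abundant FACIT chains in wild type. Col16a1, which is found near fibrils and at basement membranes, was at 14.4, 10.3, 12.9 and 13.3 CPM in WT Ctr, 9.17, 12.2, 15.8 and 14.4 in WT Tnpo3, 36.5, 28.98, 17.2 and 23.5 in P635L Ctr, and 16.2, 18.3, 11.7 and 28.7 in P635L Tnpo3. All P635L Ctr libraries exceeded all WT Ctr libraries, and it was 2.09-fold higher (1.06 ± 0.26, edgeR adjusted p = 0.00964). Between the viruses in mutants the libraries overlapped and it was not called (-0.50 ± 0.25, edgeR adjusted p = 0.297). Col14a1, which regulates fibril growth, was at 12.5, 9.61, 7.48 and 24.1 CPM in WT Ctr, 10.8, 21.5, 8.38 and 26.6 in WT Tnpo3, 23.8, 16.9, 10.4 and 20.4 in P635L Ctr, and 8.93, 18.9, 8.70 and 18.1 in P635L Tnpo3. Its groups overlapped widely and no comparison called it (0.41 ± 0.44, edgeR adjusted p = 0.58 for the mutation). Col9a3 and Col20a1 had log2 fold changes of -0.08 and 0.10 in the mutation comparison, and neither was called. Col9a3 ranged from 0.577 to 1.18 CPM over all 16 libraries, and its difference from Col9a2 was not tested. Col9a1, the third chain of type IX, had 5 counts in all.

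**Figure D4:**
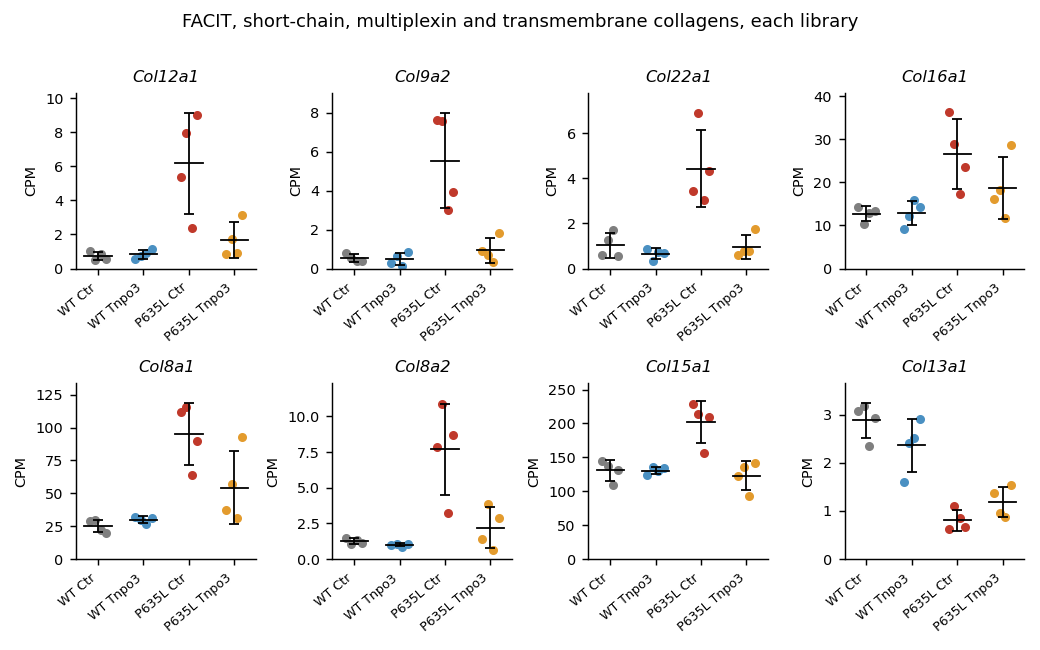
CPM of 4 FACIT and 4 other chains in each library (points), with group mean and SD (bars), on linear axes from 0. P635L Ctr lies above both wild-type groups in every panel but that of Col13a1, where it lies below.

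Among the other collagens, the 2 chains of type VIII, a hexagonal network collagen of vessel walls and of the corneal basement membrane, were both higher in P635L Ctr. Col8a1 was at 28.8, 29.4, 22.2 and 20.1 CPM in WT Ctr, 32.1, 29.5, 26.5 and 31.6 in WT Tnpo3, 112, 115, 64.1 and 89.9 in P635L Ctr, and 36.95, 56.8, 31.1 and 92.5 in P635L Tnpo3. Every P635L Ctr library lay above every wild-type library, 3.79-fold higher than WT Ctr on average (1.92 ± 0.28, edgeR adjusted p = 0.000205). Col8a2 was at 1.48, 1.07, 1.37 and 1.13 CPM in WT Ctr, 1.00, 1.06, 0.838 and 1.09 in WT Tnpo3, 7.86, 10.9, 3.26 and 8.72 in P635L Ctr, and 1.44, 3.85, 0.623 and 2.91 in P635L Tnpo3. It was 6.07-fold higher (2.60 ± 0.44, edgeR adjusted p = 0.000581), with no overlap. Under the Tnpo3 virus Col8a2 was 3.48-fold lower in mutants (-1.80 ± 0.41, edgeR adjusted p = 0.0215), with P635L Tnpo3 replicate 2 above P635L Ctr replicate 3. Col8a1 missed the threshold there (-0.81 ± 0.27, edgeR adjusted p = 0.112): P635L Tnpo3 replicate 4 lay within the P635L Ctr range, and without it the log2 fold change was -1.20 with edgeR adjusted p = 0.00579. DESeq2 called Col8a1 in that comparison (-0.81, DESeq2 adjusted p = 0.0331). The Col8a2 call was lost without P635L Ctr replicate 1 (-1.77, 0.055), 2 (-1.57, 0.0891) or 4 (-1.74, 0.0662) or P635L Tnpo3 replicate 1 (-1.65, 0.0777).

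Col13a1, a transmembrane collagen of cell junctions, was the one collagen called lower in P635L Ctr. It was at 3.08, 3.18, 2.36 and 2.93 CPM in WT Ctr, 1.61, 2.42, 2.52 and 2.91 in WT Tnpo3, 0.622, 1.098, 0.844 and 0.659 in P635L Ctr, and 1.37, 0.963, 0.876 and 1.54 in P635L Tnpo3. The 4 P635L Ctr libraries lay below all 8 wild-type libraries, 3.54-fold below WT Ctr (-1.82 ± 0.27, edgeR adjusted p = 0.000139). Between the viruses in mutants it was not called (0.54 ± 0.26, edgeR adjusted p = 0.282). The 100 bases before the starts of Col8a1 and Col13a1, and 100 that end 2 bases before that of Col8a2, are shown to set the 2 chains that moved together beside the chain that moved the other way. They are from RefSeq on GRCm38.p6, 5′ to 3′ on the strand of the gene, with GC boxes in capitals: chr16:57754738-57754837 minus for Col8a1, chr4:126286693-126286792 plus for Col8a2 and chr10:61979109-61979208 minus for Col13a1.
Col8a1: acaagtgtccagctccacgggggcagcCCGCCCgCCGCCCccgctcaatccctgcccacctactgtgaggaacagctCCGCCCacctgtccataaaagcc
Col8a2: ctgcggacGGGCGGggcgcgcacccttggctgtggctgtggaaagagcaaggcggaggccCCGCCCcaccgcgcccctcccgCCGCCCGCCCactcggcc
Col13a1: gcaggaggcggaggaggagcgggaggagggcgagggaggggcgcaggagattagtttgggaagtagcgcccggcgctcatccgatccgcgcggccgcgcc
The Col8a1 stretch has 3 GC boxes, that of Col8a2 has 4, of which the last 2 overlap, and that of Col13a1 has none, though its G and C content of 73.0% lies between the 67.0% and 80.0% of the others.

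Col15a1, a proteoglycan collagen that anchors capillaries and myocytes to the matrix, was abundant and tight within groups. It was at 145, 138, 109.7 and 131 CPM in WT Ctr, 124, 135, 129 and 134 in WT Tnpo3, 228, 213, 157 and 209 in P635L Ctr, and 122, 136, 92.9 and 142 in P635L Tnpo3. All P635L Ctr libraries were above all others in the study, 1.54-fold over WT Ctr (0.63 ± 0.14, edgeR adjusted p = 0.00494), and the Tnpo3 virus group was 1.64-fold below P635L Ctr (-0.71 ± 0.14, edgeR adjusted p = 0.00726). Its close relative Col18a1, the source of endostatin, was at 17.0 to 21.8 CPM in WT Ctr and 16.5 to 25.2 CPM in P635L Ctr and was not called (0.18 ± 0.17, edgeR adjusted p = 0.513).

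Type VI collagen, the beaded microfibril that links cells to the matrix, is built from Col6a1, Col6a2 and Col6a3. Col6a1 was at 139.8, 105, 93.7 and 112 CPM in WT Ctr, 97.6, 115, 119 and 116 in WT Tnpo3, 183, 167, 115 and 143 in P635L Ctr, and 101, 117, 91.05 and 118 in P635L Tnpo3. Col6a2 was at 172, 144, 98.5 and 125 CPM in WT Ctr, 122, 150.2, 132 and 138 in WT Tnpo3, 200.2, 188, 124 and 174 in P635L Ctr, and 107, 128, 93.6 and 119 in P635L Tnpo3. Col6a3 was at 72.2, 49.2, 48.8 and 55.9 CPM in WT Ctr, 56.5, 60.2, 68.2 and 59.03 in WT Tnpo3, 103, 97.2, 62.97 and 95.1 in P635L Ctr, and 60.2, 77.2, 51.5 and 71.4 in P635L Tnpo3. In each of the 3, P635L Ctr replicate 3 lay within the WT Ctr range and the other 3 libraries of that group lay above it. Only Col6a3 was called in the mutation comparison (0.66 ± 0.16, edgeR adjusted p = 0.0101), next to 0.43 ± 0.15, edgeR adjusted p = 0.0578 for Col6a1 and 0.35 ± 0.17, edgeR adjusted p = 0.179 for Col6a2. Only Col6a2 was called between the viruses in mutants (-0.62 ± 0.17, edgeR adjusted p = 0.044), next to -0.51 ± 0.15, edgeR adjusted p = 0.0595 for Col6a1 and -0.46 ± 0.16, edgeR adjusted p = 0.129 for Col6a3. The differences among the 3 log2 fold changes were not tested. Without WT Ctr replicate 1 or P635L Ctr replicate 3, Col6a1 passed in both comparisons (mutation 0.56 and 0.55 with edgeR adjusted p = 0.019 and 0.0183, viruses -0.52 and -0.63 with 0.0397 and 0.0242). DESeq2 called Col6a1 in both (DESeq2 adjusted p = 0.0306 and 0.0196).

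Of the remaining other chains tested none was called by edgeR in any comparison, while DESeq2 called Col26a1 lower with the Tnpo3 virus in mutants. Col26a1 was at 1.05 to 1.19 CPM in WT Ctr and 1.39 to 3.16 CPM in P635L Ctr (0.91 ± 0.35, edgeR adjusted p = 0.0883). Col6a6 and Col25a1 were lower in every P635L Ctr library than in every WT Ctr library, with log2 fold changes of -0.66 ± 0.28, edgeR adjusted p = 0.125 and -1.05 ± 0.42, edgeR adjusted p = 0.109. Col7a1, Col17a1, Col23a1, Col28a1, Col6a4 and Col6a5 overlapped between these groups.

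In the mutation comparison Col4a3, Col4a4, Col4a5, Col8a1, Col8a2, Col9a2, Col12a1, Col13a1 and Col22a1 kept their call under all 25 alternatives. Without the 3 libraries rich in ENSMUSG00000119584 the calls of Col1a1 (0.88, edgeR adjusted p = 0.102), Col1a2 (0.93, 0.0605), Col5a2 (0.65, 0.272), Col6a3 (0.61, 0.078) and Col16a1 (1.00, 0.101) were lost. That fit has 2 WT Ctr libraries in place of 4. Without the 3 libraries with high Xist, 15 calls stayed and that of Col5a2 was lost (0.71, edgeR adjusted p = 0.145). In the virus comparison in mutants Col1a1 lost its call under 17 of 25 alternatives, among them the removal of any 1 of 11 libraries (all but WT Ctr replicates 1, 3 and 4, P635L Ctr replicate 3 and P635L Tnpo3 replicate 4), with adjusted p up to 0.16. Col6a2 lost its call under 11, among them the removal of WT Tnpo3 replicate 2 or 3, P635L Ctr replicate 1, 2 or 4 or any P635L Tnpo3 library, with adjusted p up to 0.155. Col1a2 lost it under 8, among them the removal of P635L Ctr replicate 1, 2 or 4 or P635L Tnpo3 replicate 1, 2 or 3, with adjusted p up to 0.113. Without P635L Ctr replicate 1, 2 or 4 or P635L Tnpo3 replicate 1, 2 or 3 the count of lower collagens was 3 or 4 in place of 10, and Col9a2, Col15a1 and Col22a1 were in each of these.

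The same mice were high or low for many chains. Replicate 3 of P635L Ctr was the lowest of its group for 23 of the 40 chains tested and replicate 1 the highest for 27. In P635L Tnpo3, replicate 3 was the lowest for 29 and replicate 4 the highest for 24. The chains are therefore not independent observations of the conditions, and the count called depends on few mice.

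**Figure D5:**
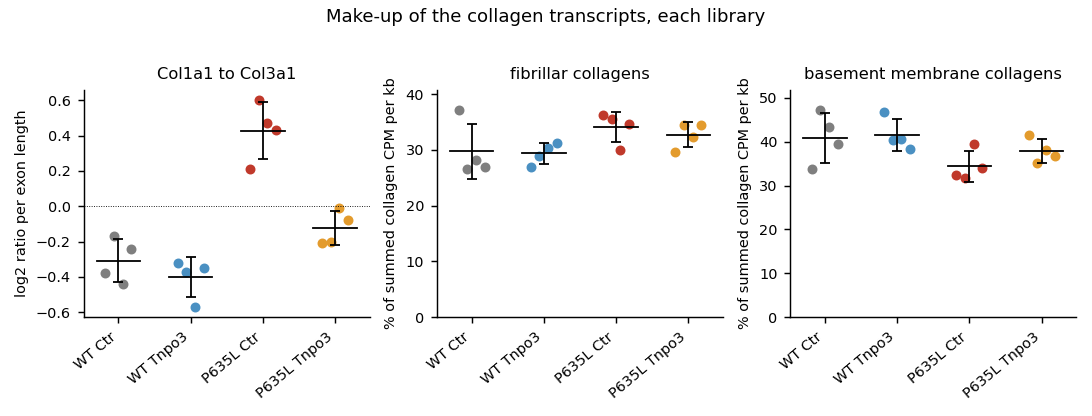
Log2 ratio of Col1a1 to Col3a1 per exon length (left), and the share in percent of summed collagen CPM per kilobase held by fibrillar (middle) and type IV chains (right), in each library (points) with group mean and SD (bars). The ratio is above 0 in the 4 P635L Ctr libraries and below 0 in the other 12, and the shares overlap between groups.

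Markers of fibroblasts moved with the collagens. Of 8 fibroblast markers, 7 were higher in P635L Ctr than in WT Ctr (median 0.84), where 7.07% of all genes were higher. In P635L Tnpo3, 5 of these markers were lower than in P635L Ctr (median -0.67), where 2.25% of all genes were lower. Their summed level was 2297 to 2810 CPM in WT Ctr, 2344 to 2936 CPM in WT Tnpo3, 3659 to 5071 CPM in P635L Ctr and 2654 to 3312 CPM in P635L Tnpo3, with none of the 8 at 0. Pdgfra, the receptor that marks cardiac fibroblasts, had a log2 fold change of 1.06 ± 0.13, edgeR adjusted p = 1.48e-05 and -0.92 ± 0.13, edgeR adjusted p = 0.000427 in the mutation and virus comparisons. Mfap4, a microfibril protein, had 2.71 ± 0.32, edgeR adjusted p = 2.85e-05 and -1.30 ± 0.30, edgeR adjusted p = 0.0252, and Dcn, decorin, had 0.87 ± 0.15, edgeR adjusted p = 0.000569 and -0.64 ± 0.15, edgeR adjusted p = 0.0218. In the interaction of virus and genotype edgeR called 2 of the 8, Lum, a small proteoglycan that binds collagen fibrils (-1.26 ± 0.24, edgeR adjusted p = 0.0188), and Pdgfra (-0.91 ± 0.18, edgeR adjusted p = 0.0221), where it called 0.504% of all genes. All 8 were negative there, with a median of -0.74. The part of fibroblast content in the collagen results was not tested.

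Markers of activated fibroblasts rose for 4 of 8 genes in the mutation comparison, where 7.07% of all genes were higher. Of the 8, 6 were positive in that comparison, with a median of 0.96 and a range of -1.27 to 4.17. Between the viruses in mutants edgeR called none of these markers, and 3.88% of all genes. There 2 of the 8 had an unadjusted p under 0.05, both lower, while 3 of the 8 were positive and the median was -0.34. In the interaction edgeR called none of these markers, and 3 of the 8 were positive, with a median of -0.61. Their summed level was 168 to 235 CPM in WT Ctr, 196 to 257 CPM in WT Tnpo3, 312 to 582 CPM in P635L Ctr and 189 to 563 CPM in P635L Tnpo3, where replicate 4 was the highest, as for Col8a1. Ltbp2 had 4.17 ± 0.52, edgeR adjusted p = 9.45e-05, Meox1, a transcription factor of activated fibroblasts, 1.59 ± 0.30, edgeR adjusted p = 0.00187 and Comp, a cartilage matrix protein, 3.41 ± 0.62, edgeR adjusted p = 0.00239. Markers of valve, tendon and cartilage, tissues that also make Col9a2, Col11a1, Col12a1 and Col22a1, were higher for 3 of 7 tested in the mutation comparison. Of these 7, 5 were positive there, with a median of 0.72 and a range of -0.58 to 6.67. Between the viruses in mutants edgeR called none of these markers, and 2 had an unadjusted p under 0.05. Their summed level was 11.1 to 17.2 CPM in WT Ctr, 11.1 to 13.6 CPM in WT Tnpo3, 27.8 to 47.6 CPM in P635L Ctr and 16.4 to 34.8 CPM in P635L Tnpo3. Scx, the tendon transcription factor, had 1.73 ± 0.27, edgeR adjusted p = 0.000376 and Sox9, that of cartilage, 1.46 ± 0.33, edgeR adjusted p = 0.00642. Tnmd, a tendon membrane protein, had 1 count over the 4 WT Ctr libraries and was at 0.323 to 1.98 CPM in P635L Ctr. The part of such cells in the results was not tested.

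Markers of other cell types were counted the same way. In the mutation comparison edgeR called 0 of 6 endothelial, 0 of 3 endocardial, 0 of 5 Schwann cell and 0 of 2 atrial markers, with 0, 1, 0 and 0 of them at an unadjusted p under 0.05. It called 1 of 6 mural markers (Abcc9), 1 of 4 epicardial (Wt1), 1 of 7 lymphocyte (Cd4) and 3 of 7 cardiomyocyte markers (Tnni3, Myl2 and Myh6), all lower. Of all genes it called 14.2% there, 7.07% as higher and 7.14% as lower. Lists this short cannot set a count of 0 or 1 apart from that share. None of the 7 cardiomyocyte markers was positive, with a median of -0.50. Between the viruses in mutants, 1 endocardial gene, Npr3, was lower and 1 epicardial gene, Msln, was higher, where 2.25% of all genes were lower and 1.63% higher. Macrophage markers had the opposite sign to most collagens. In the mutation comparison 0 of 7 were positive (median -0.77) and 1, Lyve1, was called lower, with 4 of 7 at an unadjusted p under 0.05. Between the viruses in mutants 7 of 7 were positive (median 0.71), edgeR called none, and 6 had an unadjusted p under 0.05. In the interaction 7 of 7 were positive (median 0.82), edgeR called none, and 3 had an unadjusted p under 0.05. The summed level of macrophage markers was 752, 373, 273 and 254 CPM in WT Ctr replicates 1 to 4. It was 323 to 365 CPM in WT Tnpo3, 208 to 291 CPM in P635L Ctr and 314 to 528 CPM in P635L Tnpo3. WT Ctr replicate 1 was far above the rest of its group, and replicates 3 and 4 lay within the P635L Ctr range. The mutation medians of this list therefore lean on 1 library. The part of these cells in the collagen results was not tested.

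Of 18 genes for collagen folding and modification, 4 were higher and 1 was lower in P635L Ctr, where 7.07% of all genes were higher and 7.14% lower, and the list median was 0.05. Under the Tnpo3 virus in mutants 1 was lower, where 2.25% of all genes were, and the median was -0.10. P3h2, a prolyl 3-hydroxylase, was at 2.53, 2.23, 1.43 and 1.56 CPM in WT Ctr, 2.94, 2.22, 1.93 and 1.69 in WT Tnpo3, 4.75, 4.09, 5.68 and 6.63 in P635L Ctr, and 2.22, 2.32, 1.83 and 2.39 in P635L Tnpo3. Its libraries did not overlap between P635L Ctr and either WT Ctr or P635L Tnpo3, with log2 fold changes of 1.45 ± 0.23, edgeR adjusted p = 0.000343 and -1.27 ± 0.23, edgeR adjusted p = 0.00423. P3h3, its relative, had 0.65 ± 0.15, edgeR adjusted p = 0.00678 and Plod2, the lysyl hydroxylase that directs crosslinks, 0.75 ± 0.18, edgeR adjusted p = 0.00728 in the mutation comparison, and neither was called between the viruses.

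Among 13 genes that cleave procollagen ends and crosslink fibrils, 7 were higher and 2 lower in P635L Ctr. Of all genes 7.07% were higher and 7.14% lower there, and the list ran from -1.98 to 1.51 with a median of 0.6. With the Tnpo3 virus in mutants 1 was lower, where 2.25% of all genes were, and the list median was -0.36. Pcolce, which speeds removal of the C-terminal propeptide, was at 108, 89.8, 82.3 and 72.2 CPM in WT Ctr, 91.03, 101, 103 and 89.8 in WT Tnpo3, 245, 255, 189 and 268 in P635L Ctr, and 142, 156, 148 and 173 in P635L Tnpo3. It rose in P635L Ctr (1.44 ± 0.13, edgeR adjusted p = 1e-06) and was lower under the Tnpo3 virus in mutants (-0.63 ± 0.13, edgeR adjusted p = 0.0111), with all P635L Tnpo3 libraries between the WT Ctr and P635L Ctr ranges. Loxl3, a lysyl oxidase, had 1.19 ± 0.24, edgeR adjusted p = 0.00287 and Adamts2, the N-propeptidase of types I to III, 0.81 ± 0.18, edgeR adjusted p = 0.00442 in the mutation comparison.

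Among the pathway genes, the interaction of virus and genotype called 1 of 9 receptors and 1 of 5 breakdown enzymes, where it called 0.504% of all genes. Of the 18 folding and 13 cleavage and crosslinking genes edgeR called 0, with 4 and 3 at an unadjusted p under 0.05. Ddr1, a receptor tyrosine kinase that collagen activates, was at 20.3, 23.1, 19.4 and 25.6 CPM in WT Ctr, 20.03, 28.3, 17.4 and 23.9 in WT Tnpo3, 53.7, 53.8, 49.9 and 57.8 in P635L Ctr, and 26.7, 26.3, 26.4 and 23.02 in P635L Tnpo3. P635L Ctr stood apart from every other group, with 1.29 ± 0.13, edgeR adjusted p = 3.21e-06 for the mutation, -1.07 ± 0.13, edgeR adjusted p = 0.00018 for the virus in mutants and -1.09 ± 0.19, edgeR adjusted p = 0.0106 for the interaction. Itga11, an integrin for fibrillar collagen, had 1.61 ± 0.20, edgeR adjusted p = 3.1e-05 and Mrc2, an uptake receptor for collagen fragments, 0.83 ± 0.17, edgeR adjusted p = 0.00311 in the mutation comparison. In that comparison 3 of 9 receptors were higher, where 7.07% of all genes were. Mmp2, a gelatinase that digests type IV and denatured collagen, was at 37.5, 29.9, 29.0 and 32.1 CPM in WT Ctr, 44.9, 36.6, 27.2 and 31.1 in WT Tnpo3, 72.6, 65.95, 52.5 and 77.6 in P635L Ctr, and 24.2, 35.9, 24.9 and 35.9 in P635L Tnpo3. It was higher in P635L Ctr (1.06 ± 0.17, edgeR adjusted p = 0.000368) and lower with the virus in mutants (-1.15 ± 0.17, edgeR adjusted p = 0.000952), and its interaction was -1.27 ± 0.24, edgeR adjusted p = 0.0188. Ctsk, a lysosomal collagenase, had 0.87 ± 0.24, edgeR adjusted p = 0.0189 and Mmp14, the membrane activator of Mmp2, 0.28 ± 0.27, edgeR adjusted p = 0.53 in the mutation comparison. There 2 of 5 breakdown genes tested were higher, next to the same 7.07% of all genes.

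Mutant hearts with the Tnpo3 virus were also set against both wild-type groups. Against WT Ctr, 5 collagens were called where 3.07% of all genes were, 1.49% as higher and 1.58% as lower: Col4a3 (1.20 ± 0.26, edgeR adjusted p = 0.0144), Col4a4 (0.82 ± 0.21, edgeR adjusted p = 0.0378), Col4a5 (0.79 ± 0.20, edgeR adjusted p = 0.0419) and Col8a1 (1.11 ± 0.28, edgeR adjusted p = 0.0376) were higher and Col13a1 (-1.28 ± 0.26, edgeR adjusted p = 0.0104) was lower. Against WT Tnpo3, 4 were called where 3.72% of all genes were, 1.72% as higher and 2% as lower: Col4a3 (1.37 ± 0.26, edgeR adjusted p = 0.00609), Col4a4 (1.11 ± 0.21, edgeR adjusted p = 0.00556) and Col4a5 (0.83 ± 0.20, edgeR adjusted p = 0.031) were higher and Col13a1 (-0.99 ± 0.26, edgeR adjusted p = 0.0418) was lower. Col4a3, Col4a4, Col4a5 and Col13a1 were thus called against both wild-type groups. In each call the libraries did not overlap, but the share of all genes without overlap was not counted. The gap was narrow for Col4a3, with a lowest P635L Tnpo3 library of 6.58 CPM beside a highest WT Ctr library of 6.44. For Col13a1 the highest P635L Tnpo3 library was at 1.54 CPM and the lowest WT Tnpo3 library at 1.61. The medians over the 40 collagens were 0.07 and 0.29, against -0.05 and -0.02 over all genes.

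These calls rested on few libraries. Against WT Ctr the count was 1 without WT Ctr replicate 4, P635L Tnpo3 replicate 2 or P635L Tnpo3 replicate 4, and 2 without WT Ctr replicate 2. Leaving out WT Ctr replicate 1, P635L Ctr replicate 2, P635L Ctr replicate 4 or P635L Tnpo3 replicate 1 gave 3. It was 0 without the 3 libraries rich in ENSMUSG00000119584 and 1 without the 3 libraries with high Xist. Against WT Tnpo3 it was 2 without WT Tnpo3 replicate 2, WT Tnpo3 replicate 4 or P635L Tnpo3 replicate 1, 2 or 4, and there Col4a3 and Col4a4 lost their call under no alternative but the removal of the high-Xist libraries (edgeR adjusted p = 0.0611 and 0.0683). Against WT Ctr, Col8a1 was also lost without WT Ctr replicate 3, and Col4a5 without P635L Ctr replicate 3 or P635L Tnpo3 replicate 3. Against WT Tnpo3, Col4a5 was lost without WT Tnpo3 replicate 1, 2 or 4 or any P635L Tnpo3 library (edgeR adjusted p up to 0.112). Col13a1 was lost there without WT Tnpo3 replicate 2, 3 or 4, P635L Ctr replicate 1 or 3 or any P635L Tnpo3 library (up to 0.128). The type I chains were not called in either comparison, with Col1a1 at 0.12 ± 0.23, edgeR adjusted p = 0.818 and Col1a2 at 0.18 ± 0.21, edgeR adjusted p = 0.708 against WT Ctr.

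Splicing of collagen genes was read from the authors' deposited rMATS tables, which compare each of 3 groups with WT Ctr. Few events had enough reads: 52 in the P635L Ctr table, 46 in the P635L Tnpo3 table and 34 in the WT Tnpo3 table averaged 10 or more junction reads a library on both sides. With a false discovery rate under 0.05 and an inclusion difference of at least 0.1, 1, 2 and 1 of these were called, where 2.52%, 2.12% and 0.941% of all such events were. The called events lay in 2 genes. At a minimum of 20 junction reads 0 of 37, 0 of 31 and 0 of 20 were called by the rMATS false discovery rate.

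In Col16a1 a 48-base exon at chr4:129966862-129966909 of GRCm39 was called in the P635L Tnpo3 table. Inclusion is the share of transcripts that keep the exon, and it ran from 0 to 0.537 over the 16 libraries. Inclusion in WT Ctr was 0.358, 0, 0.115 and 0.207 in the order listed by the authors' deposited table, whose link to replicate numbers is not stated, from 9, 6, 19 and 11 junction reads. In P635L Tnpo3 it was 0.511, 0.430, 0.537 and 0.443 from 5, 25, 8 and 30 reads, a difference of 0.31 (rMATS FDR 0.0209 in the authors' deposited table). P635L Ctr had a mean of 0.308 (difference 0.138, FDR 0.175) and WT Tnpo3 a mean of 0.112 (FDR 1). P635L Tnpo3 exceeded P635L Ctr by 0.173 (two-sided exact permutation p = 0.0286, the smallest possible, n = 4 per group, not adjusted). The event was chosen for its call in P635L Tnpo3 against WT Ctr, so that p is no independent support.

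In Col27a1, a fibrillar collagen of cartilage, the choice between 2 acceptor sites 70 bases apart at chr4:63236429 and chr4:63236499 was called in all 3 tables. The mean use of the first site was 0.014 in WT Ctr, 0.210 in WT Tnpo3 (FDR 0.00344), 0.140 in P635L Ctr (FDR 0.00655) and 0.338 in P635L Tnpo3 (FDR 0.0147), by the authors' deposited tables. The P635L Tnpo3 mean rests on 1 library at 1.00 with 3 reads, beside 0.071, 0.177 and 0.103 in the others. The P635L Tnpo3 mean exceeded that of P635L Ctr by 0.198 (two-sided exact permutation p = 0.514, n = 4 per group, not adjusted). The WT Tnpo3 mean likewise holds a value of 0.478 from 5 reads. That of P635L Ctr holds 0.416 from 13 reads, beside 0.037, 0.107 and 0. The 3 tables share the WT Ctr libraries, which had 3 to 27 reads.

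The authors' deposited DESeq2 tables listed 42 of the 44 collagens in the P635L Ctr table and called 19, 17 of them higher. All 16 called here were among them, and the other 3 were Col11a1, Col26a1 and Col6a6. For P635L Tnpo3 over WT Ctr the authors' deposited table called the same 5 collagens as here, and for WT Tnpo3 it called 0. These tables come from the same counts and are no second measurement. The share of all genes that they call was not counted, so their counts only set the calls here beside those of the authors.

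The promoters of the collagens were compared in RefSeq windows of 300 bases, from 250 before to 50 after each start, on GRCm38.p6. A window was found for 35 of the 44 genes, 38 windows in all. Col1a1, Col2a1, Col4a3, Col5a2, Col9a3, Col12a1, Col14a1, Col22a1 and Col26a1 had no entry. The GC box GGGCGG, on either strand, was in 7 of 10 windows of genes that rose in P635L Ctr, in 16 of 28 windows of other collagens and in 35.7% of all 32851 windows. The TATA box TATAAA was in 0 of 10, 5 of 28 and 13.6%, and CCAAT in 3 of 10, 10 of 28 and 37.4%. The letters CAGACA, bound by SMAD proteins in other genes, were in 4 of 10, 5 of 28 and 21.0%. The windows are few and the motifs short, so these shares are given as a description.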

How the data were processed

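RNA was taken from the left ventricle of 16 mice, 4 per group. Poly(A) RNA was made into directional libraries, per the labels' protocols. The submitters' processing notes name STAR 2.7.9a, featureCounts 2.0.6, DESeq2 and build GRCm39, and the deposited table holds raw read counts per gene with exon lengths. The authors' deposited DESeq2 tables hold log2 fold changes and adjusted p-values, and their rMATS tables hold junction reads, inclusion levels from 0 to 1, an inclusion difference (a score from -1 to 1) and an FDR, per the file headers. The order of libraries within a group of the rMATS tables is not stated.

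Symbols were matched by gene ID. Of 56953 genes, 11276 took theirs from the deposited splicing tables and 40786 from a gene name table, and 4891 kept their ID. One edgeR 4.0.16 model (R 4.3.3, TMM scaling, filterByExpr, robust quasi-likelihood, 12 residual degrees of freedom) was fitted to all 16 libraries and 18662 genes. It gave 5 comparisons between groups and the interaction of virus and genotype, each with Benjamini-Hochberg adjustment over all genes and a threshold of 0.05. SE is the absolute log2 fold change over the root of F. CPM uses TMM library sizes, and levels are compared between genes per kilobase of exon. Ratios of 2 chains, with 0.5 counts added to each, were compared by a two-sided exact permutation test over 70 assignments. Splicing events with a mean of 10 junction reads per library in both groups were read at FDR under 0.05 and a difference of 0.1. The edgeR fit was tested on simulated data.

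Values in every library are given for collagens called in any comparison and for the 2 of each class highest per kilobase. Of every other list the 3 genes with the smallest adjusted p in P635L Ctr over WT Ctr could be named, and further genes were named after their values were seen. The members and lists were chosen with earlier results of these data known. Alternatives were DESeq2 1.42.0, other scalings, no filter, a replicate block, only the groups compared, a minimum fold change, and fits without single libraries, without the libraries rich in ENSMUSG00000119584 and without those high in Xist. Libraries of a group differed by more than counting noise in all 24 pairs, with chi-square per degree of freedom of 18.9 to 736. Counts of 28493249 to 85922669 per library limit precision only for the scarce chains. Promoter sequences are RefSeq on GRCm38.p6 and were not mixed with GRCm39 coordinates.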

Additional observations from a re-analysis of the deposited data

Results flagged for a closer look

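In 4 of the 88 groups of 4 libraries checked over the 22 collagens with library values, 1 library stood far from the other 3. Chance gives about 1 in 20 such groups. Col1a2 was low in P635L Ctr replicate 3, at 203.3 CPM. Col22a1 was high in P635L Tnpo3 replicate 4, at 1.734 CPM, and its call against P635L Ctr held without that library. Col4a2 was high in WT Ctr replicate 2, at 453.6 CPM, 1 of the libraries rich in ENSMUSG00000119584. Col4a5 was high in WT Tnpo3 replicate 3, at 36.5 CPM, close to the 36.7 CPM of WT Ctr replicate 3.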

How the results depend on the processing

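Of 47 results on named genes, none reversed under up to 25 alternatives. Of the 37 that were called, 12 stayed called under all of them, and of the 10 not called, 7 were called under none. The count of called collagens ran from 14 to 17 without single libraries for P635L Ctr over WT Ctr, 0 to 0 for WT Tnpo3 over WT Ctr, 3 to 11 for P635L Tnpo3 over P635L Ctr, 1 to 5 for P635L Tnpo3 over WT Ctr, 2 to 4 for P635L Tnpo3 over WT Tnpo3 and 0 to 1 for the interaction. For P635L Tnpo3 over P635L Ctr it was 6 with upper-quartile scaling, 6 with no filter on low counts and 4 with a minimum log2 fold change of 1 either way. In the same comparison it was 13 with DESeq2 and 13 with only the 2 groups compared. For P635L Tnpo3 over WT Ctr it was 3 with no filter, 3 with only the 2 groups, 0 without the libraries rich in ENSMUSG00000119584, 1 without those high in Xist and 3 with the minimum fold change. Against WT Tnpo3 it was 0 without the high-Xist libraries and 2 with the minimum fold change. DESeq2 called 3 collagens in the interaction. Splicing calls at 20 junction reads were 0, 0 and 0. Fits without several libraries test fewer samples, and the cause of the other changes was not tested.

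Replicate numbers were not taken to pair the mice, though a shared batch by number was not tested. Of 24 pairs with the same number, 6 had a correlation over 0.1 (range -0.257 to 0.552), against a range of -0.326 to 0.251 between other numbers. The 0.552 was that of WT Ctr replicate 4 and WT Tnpo3 replicate 4, both rich in ENSMUSG00000119584 and high in Xist. Of 16 libraries, 7 correlated best with their own number. With the replicate block the counts of calls were 15, 0, 9, 5, 3 and 0 in the order above, without Col5a2 in the first, Col4a3 in the third and Col13a1 in the fifth.

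Without single libraries, the log2 ratio of Col1a1 to Col3a1 differed by 0.68 to 0.81 for P635L Ctr over WT Ctr, -0.63 to -0.49 for P635L Tnpo3 over P635L Ctr and 0.14 to 0.23 for P635L Tnpo3 over WT Ctr. In that order, Col1a1 to Col1a2 differed by -0.10 to -0.01, -0.00 to 0.05 and -0.07 to 0.02, Col4a1 to Col4a2 by 0.09 to 0.21, -0.04 to 0.01 and 0.08 to 0.20, and Col8a1 to Col8a2 by -0.76 to -0.41, 0.79 to 1.37 and 0.22 to 0.80. The changes of sign lie within 0.02 of 0, where no ratio passed the test. Few counts limit the folds of scarce chains, such as Col6a4 with 108 counts over all libraries and an SE of 1.03 in the mutation comparison.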
